A study of Mus musculus with 9 samples.

Results

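Stromal cells of the bone marrow of leukemic mice were compared between the medium phase of disease (M, 5 to 50% leukemic cells in the marrow, 3 arrays) and the early phase (E, 1 to 5%, 3 arrays). The comparison was made over all genes that had a probe set with a single gene symbol. The gene lists and the genes named below were chosen with earlier results of these data known. Each gene was represented by the probe set with a single gene symbol that had the highest mean signal over the 9 arrays of the series, which gave 18194 genes. The 9097 genes with a mean at or above log2 6.83, the median of these means, were tested. The 6 arrays of this comparison and 3 arrays of wild type mice (WT), given here as background, came from FVB/NJ mice. From each, bone marrow cells negative for CD45.1 and Ter119 had been sorted, total RNA had been extracted with Trizol, and biotin-labelled cRNA made with a 3' labelling kit had been hybridised to Affymetrix expression arrays. The E and M arrays came from leukemic recipients, and the WT arrays from wild type mice. The driver of the leukemia, the age of the mice and how many mice went into an array are not given in the sources used here, and the latent and late phases are not analysed here. The labels call the 3 arrays of a group biological replicates, so the tests measure the spread between those. Values are log2 MAS5 signals, and values of 3 arrays are given in the order of replicates 1, 2 and 3 throughout.

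CD45.1, a form of CD45, marks nearly all blood cells other than maturing red cells, and Ter119 marks red cells and their late precursors, so a sort for cells that lack both is meant to leave the stroma. The stroma holds mesenchymal cells that give rise to bone, cartilage and fat, the lining of the vessels, and the cells around the vessels. Mesenchymal cells of the marrow secrete Cxcl12, which retains blood stem cells, and the growth factor Kitl, which keeps them alive. Leukemia is known to remodel this niche. The labelled cell type was checked against its markers. Transcripts of red cell precursors and of dividing cells were bright in both groups. For Gata1, a transcription factor of the erythroid lineage, the E arrays read 12.15, 12.17 and 12.19 and the M arrays 11.33, 11.28 and 11.09. Ptprc, which encodes CD45 itself, read 9.74, 9.45 and 9.59 in E and 10.50, 10.25 and 11.17 in M, far above the median of all probe sets (5.50 in E and 6.26 in M). The stromal receptor gene Lepr, by contrast, read 7.17, 6.43 and 6.98 in E and 12.17, 11.94 and 12.31 in M. Blood and erythroid transcripts were thus present in every array. Stromal genes varied in level: Lepr was near the median in E, while genes of collagens and fibroblast matrix averaged 8.49 to 8.63 there. In such bulk samples, fewer cells of a type and less RNA per cell cannot be told apart.

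Some properties of the arrays moved with the groups. Poly-A control RNAs, which are added to the sample before labelling, read 8.80 ± 0.13 in E and 9.85 ± 0.30 in M (SD, n = 3), 2.07-fold higher (two-sided exact permutation p = 0.1, which no comparison of 3 with 3 arrays can undercut). Control RNAs added at hybridisation differed by 0.11 (log2, exact permutation p = 0.3). The excess of 3' over 5' signal, which grows as RNA degrades, differed by 0.11 for Actb (exact permutation p = 0.5) and 0.21 for Gapdh (exact permutation p = 0.3). For Gapdh it was 0.43, 0.34 and 0.07 in the M arrays and 0.06 to 0.08 in the E arrays. Exact zeros numbered 556 to 754 in the E arrays and 249 to 338 in the M arrays. Results under scaling on the poly-A controls are given below, and any further part of these differences in the results was not tested.

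M and E differed at most of the tested genes. With limma, 6368 of 9097 genes (70.0%) had an adjusted p under 0.05 (Benjamini-Hochberg), 2376 (26.1%) higher and 3992 (43.9%) lower in M. The unadjusted p was under 0.05 for 6574. The 3 M arrays lay wholly above the 3 E arrays in 2474 genes (27.2%) and wholly below in 4176 (45.9%). The root mean square difference between arrays over the tested genes was 0.224 to 0.242 within E and 1.17 to 1.42 between E and M. Rises and falls had different shapes. Of the called genes 1345 rose by more than 1 (log2) and 265 fell by more than 1. More than 2 was reached by 832 rises and 0 falls, and more than 5 by 52 rises. The median rise was 1.23 and the median fall -0.57, and the risen genes were dimmer in E (median 8.10) than the fallen ones (10.84).

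**Figure D1:**
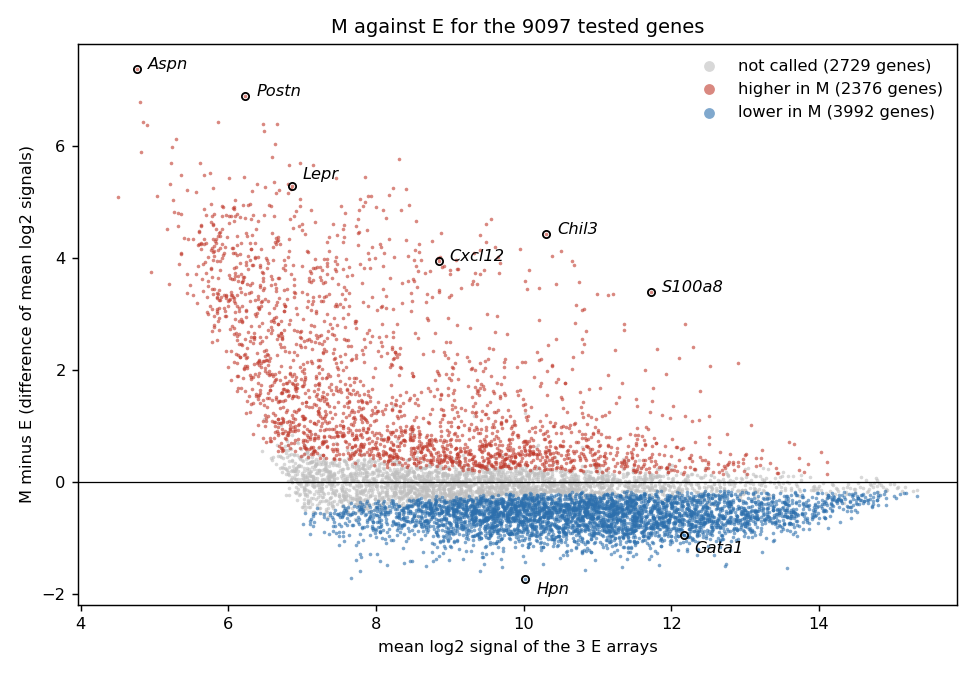
Difference between the mean log2 signals of M and E (vertical axis) against the mean log2 signal in E (horizontal axis) for the 9097 tested genes, with one point per gene, coloured by the call at an adjusted p under 0.05. Rises reached 7.37 (Aspn) and lay mostly at dim E signals, falls reached -1.73 (Hpn), and the empty lower left corner is set by the brightness filter, which a gene dim in E passed only if it was bright in another group.

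The filter makes that asymmetry in part by construction, so the numbers of genes called were repeated over all 18194 genes with no filter. The counts by size of difference and the median rise and fall above were not repeated. They hold for the tested genes only. There 4382 genes (24.1%) were higher and 3892 (21.4%) lower in M. When all genes were ranked by their E level and cut into 5 groups of equal size, 10.1% of the brightest group were called higher and 65.7% lower, with a median M minus E of -0.40. In the dimmest group 18.3% were called higher and 0.165% lower, with a median of 1.04. In the middle group, with E levels from 5.28 to 7.90, 44.2% were called higher and 3.44% lower, with a median of 0.60. Counts of members of gene lists below are taken from this fit over all genes, to be read against 24.1% higher and 21.4% lower. Lists with a mean E level in the middle group are better read against its 44.2%. The shares called higher in the B lineage, eosinophil, interferon, Notch and complement lists are nearer to that 44.2% than to 24.1%. Differences with SE and adjusted p of single genes are those of limma over the 9097 tested genes, unless said otherwise. An E mean near or under 5.50 is a weak signal, so the folds quoted from there depend on how MAS5 treats dim probe sets.

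The share of calls in each direction depended on the scaling of the arrays. As deposited, 37.3% of the calls were higher in M, and the median M minus E over the tested genes was -0.19. Quantile normalization gave 2086 higher and 4618 lower (median -0.29), centring each array on its median 1221 and 6948 (median -0.95), and scaling on the poly-A spike-ins 1009 and 7210 (median -1.24). Under all 4 scalings 1007 genes (11.1%) were called higher and 3680 (40.5%) lower. Spike-in scaling takes 1.05 off every difference between M and E, so a rise smaller than that turns negative there.

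**Figure D2:**
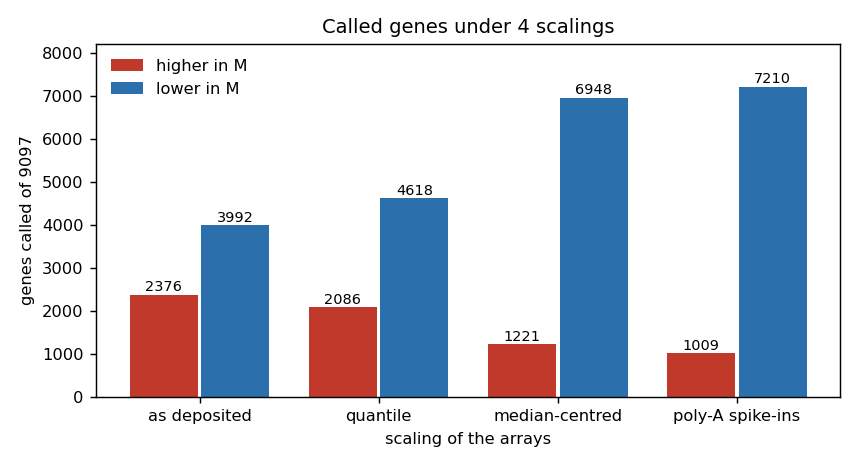
Number of the 9097 tested genes called higher (red) and lower (blue) in M than in E, by the scaling of the arrays. Calls higher in M ranged from 1009 with spike-in scaling to 2376 as deposited, and calls lower in M from 3992 to 7210.

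Upstream sequences are shown for 4 genes at the extremes: the largest rise (Aspn), the gene that rose furthest in M replicate 3 beyond the other M arrays (Tnmd), the largest fall (Hpn) and a red cell gene that departed in M replicate 3 (Alas2). They are the 250 bases before the annotated start, 5' to 3' on the gene's strand, from RefSeq on GRCm38.p6. Capitals mark matches on either strand to TATAAA, the letters of the TATA box, to CCAAT, and to AGATAA or TGATAA, letters that GATA factors bind. The Aspn sequence lies at chr13:49544193-49544442 (plus strand), that of Tnmd at chrX:133850758-133851007 (plus), that of Hpn at chr7:31115327-31115576 (minus) and that of Alas2 at chrX:150547167-150547416 (plus).
Aspn: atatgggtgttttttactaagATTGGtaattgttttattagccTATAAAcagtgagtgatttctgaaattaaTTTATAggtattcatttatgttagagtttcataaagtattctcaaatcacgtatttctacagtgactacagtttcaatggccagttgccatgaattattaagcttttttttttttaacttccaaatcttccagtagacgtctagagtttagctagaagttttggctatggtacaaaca
Tnmd: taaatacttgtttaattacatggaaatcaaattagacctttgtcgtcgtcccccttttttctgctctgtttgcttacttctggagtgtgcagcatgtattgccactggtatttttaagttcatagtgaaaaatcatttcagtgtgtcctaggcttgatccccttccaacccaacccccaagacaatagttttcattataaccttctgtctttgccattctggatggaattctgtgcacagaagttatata
Hpn: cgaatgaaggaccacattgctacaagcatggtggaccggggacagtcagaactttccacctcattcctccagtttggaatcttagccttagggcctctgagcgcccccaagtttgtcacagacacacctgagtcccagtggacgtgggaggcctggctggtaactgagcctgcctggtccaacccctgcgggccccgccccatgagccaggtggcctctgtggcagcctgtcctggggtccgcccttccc
Alas2: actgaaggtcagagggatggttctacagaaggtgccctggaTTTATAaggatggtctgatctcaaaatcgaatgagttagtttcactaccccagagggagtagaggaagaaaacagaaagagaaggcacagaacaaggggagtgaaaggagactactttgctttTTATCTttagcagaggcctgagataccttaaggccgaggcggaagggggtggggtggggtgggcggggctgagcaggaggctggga
The Aspn window held 3 matches and that of Alas2 held 2, among them 1 GATA-type match, and those of Tnmd and Hpn held 0. Of the 7486 tested genes with an upstream sequence (82.3%), 6.01% held TATAAA, 37.2% CCAAT and 8.52% a GATA-type match. TATAAA was found in 9.88% of the 1053 such genes that rose by more than 1 and in 4.05% of the 222 that fell by more than 1. A match of letters shows no binding.

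Aspn, which encodes the collagen-binding matrix protein asporin, read 4.70, 4.34 and 5.25 in E and 11.82, 11.63 and 12.93 in M, a difference of 7.37 ± 0.34 SE, adjusted p = 1.12e-08. The E arrays were below the median of all probe sets and each M array far above them. Postn, a matrix protein of periosteum and tendon, read 6.03, 6.25 and 6.41 in E and 12.72, 12.78 and 13.89 in M (6.90 ± 0.26 SE, adjusted p = 2.70e-09). The heparin-binding growth factor gene Ptn differed by 6.79 ± 0.45 SE, adjusted p = 2.03e-07, and its M arrays read 10.95, 11.01 and 12.82, highest in replicate 3. Tnmd, a marker of tendon cells, differed by 6.43 ± 0.88 SE, adjusted p = 5.83e-05. The protease gene Prss23 (6.43), the joint lubricant gene Prg4 (6.40), Ccn3 of the CCN matricellular family (6.39) and the collagen gene Col8a1 (6.27) followed. Mmp13, the collagenase of bone and cartilage, was among the tightest, at 8.15, 8.39 and 8.40 in E and 14.15, 14.00 and 14.10 in M. Il6, an inflammatory cytokine, differed by 5.89 ± 0.26 SE, adjusted p = 8.58e-09, and Cyp1b1, an enzyme of the cytochrome P450 family, by 6.37 ± 0.32 SE, adjusted p = 2.48e-08. For each gene named in this paragraph the groups did not overlap, and the WT arrays lay nearer to E than to M. For Postn, for example, WT read 7.60, 7.34 and 7.55.

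The largest falls were small beside these. Hpn, which encodes the membrane serine protease hepsin, ran from 9.99 to 10.07 in E and read 8.27, 8.24 and 8.37 in M (-1.73 ± 0.09 SE, adjusted p = 2.62e-08, 3.32-fold lower). Both groups were tight, and WT (9.79, 9.89 and 9.72) lay close to E. Nme4, a mitochondrial nucleoside diphosphate kinase, differed by -1.58, the nucleolar protein gene Ccdc86 by -1.56 and Tamm41, an enzyme of cardiolipin synthesis, by -1.47. The mitochondrial ribosomal protein gene Mrps27 differed by -1.50, Atp5md of the ATP synthase by -1.54 and Lgals9, a galectin, by -1.50. Psen2, a subunit of gamma-secretase, read 10.30, 10.28 and 10.20 in E and 8.81, 8.71 and 8.87 in M (-1.46 ± 0.09 SE, adjusted p = 8.46e-08). Among the 15 largest falls, Prdm11, Dctn6 and Kcng2 were the most uneven in M, with SDs of 1.61, 1.03 and 0.79. Prdm11 (-1.71 ± 0.60 SE, adjusted p = 0.0251) read 4.11, 6.67 and 7.08 in M against 7.61, 7.76 and 7.61 in E. Kcng2 differed by -1.58 ± 0.36 SE, adjusted p = 0.00234. The M arrays of Dctn6 read 10.58, 10.79 and 12.46 against 12.65, 12.72 and 12.85 in E, so replicate 3 lay close to E.

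Markers of mesenchymal niche cells rose together. All 20 of 20 measured members were called higher, with a median M minus E of 4.27, against 0.19 over all 18194 genes, and the same number were called without M replicate 3. Cxcl12 read 8.82, 8.80 and 8.93 in E and 12.82, 12.75 and 12.80 in M, a difference of 3.94 ± 0.08 SE, adjusted p = 8.89e-11, or 15.4-fold. Its M arrays agreed within 0.1 and WT read 8.61, 8.53 and 8.75, beside E. Kitl, at 5.74, 5.65 and 5.96 in E and 10.75, 10.52 and 10.36 in M, differed by 4.76 ± 0.20 SE, adjusted p = 6.97e-09. The leptin receptor gene Lepr, which marks perivascular stromal cells, differed by 5.28 ± 0.22 SE, adjusted p = 6.41e-09. Pdgfrb, the PDGF receptor of mural and stromal cells, differed by 5.65 ± 0.16 SE, adjusted p = 4.35e-10, and Pdgfra, its counterpart on mesenchymal progenitors, by 4.74 ± 0.28 SE, adjusted p = 8.84e-08. Foxc1, a transcription factor needed for the Cxcl12-rich reticular cells, differed by 4.41, and Igfbp5 by 5.45.

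Matrix genes rose in near unison. Of 32 genes of collagens and fibroblast matrix, 31 were called higher and 0 lower (median 4.09), and of 14 basement membrane genes 13 (median 4.26). Col3a1, a fibrillar collagen, read 10.51, 10.50 and 10.50 in E and 14.60, 14.49 and 14.78 in M (4.12 ± 0.09 SE, adjusted p = 1.09e-10). Col1a1, the main collagen of bone, was brighter in E, at 11.34, 11.24 and 11.42, and rose less, to 12.83, 13.01 and 13.45 (1.77 ± 0.14 SE, adjusted p = 8.44e-07). Fn1, fibronectin, differed by 4.15, the proteoglycan gene Lum by 4.61 and Col6a3 by 4.09. Nid1 (4.85) and Col4a1 (4.29) stand for the basement membrane, the sheet under vessel walls. Enzymes that cut matrix and their inhibitors rose in 18 of 18 members (median 4.13), with the inhibitors Timp1 at 4.10 and Timp3 at 5.44 beside the protease Adamts1 at 4.31. Without M replicate 3 these 3 lists gave 31, 12 and 17 calls higher.

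The skeletal lineages rose as well, cartilage from bright levels. Among 19 chondrocyte genes 18 were called higher (median 3.53), and among 15 osteoblast genes 12 (median 3.18). Comp, a cartilage and tendon matrix protein, read 11.18, 11.25 and 10.99 in E and 14.43, 14.44 and 14.59 in M (3.35 ± 0.09 SE, adjusted p = 3.37e-10). Col9a1, a collagen of cartilage fibrils, read 12.28, 12.28 and 12.32 in E and 14.79, 14.66 and 14.68 in M (2.42 ± 0.07 SE, adjusted p = 3.37e-10). Both lay below WT in E, where Comp read 12.28, 12.21 and 12.48. Matn3 (3.71) and Col11a1 (3.17) are cartilage matrix genes of the same kind. For bone, Ibsp, bone sialoprotein, differed by 3.59 ± 0.17 SE, adjusted p = 1.76e-08, Alpl, the phosphatase of mineralising cells, by 3.84 ± 0.19 SE, adjusted p = 1.83e-08, and the parathyroid hormone receptor gene Pth1r by 3.62 ± 0.19 SE, adjusted p = 2.69e-08. In the adipogenic list 13 of 15 were called higher (median 2.51). Adipoq, adiponectin, read 7.34, 7.51 and 7.82 in E and 10.80, 10.86 and 9.79 in M (2.93 ± 0.25 SE, adjusted p = 1.53e-06), with replicate 3 the lowest M array and above all E arrays. Lpl, lipoprotein lipase, differed by 4.51 and the transcription factor gene Cebpd by 2.92.

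Genes of cells in and around vessels were less even. In the pericyte and smooth muscle list 11 of 16 were called higher and 0 lower (median 3.43). Rgs5 and Cspg4, markers of pericytes, differed by 4.60 and 3.73. Acta2, smooth muscle actin, read 6.27, 5.01 and 6.10 in E and 9.91, 9.81 and 11.42 in M (4.59 ± 0.42 SE, adjusted p = 2.91e-06), highest in replicate 3. Of 22 endothelial genes 17 were called higher and 2 lower (median 1.46), and 14 and 2 without M replicate 3. Pecam1, an adhesion protein of endothelium, lay under the brightness filter, at 5.19, 2.64 and 3.08 in E and 5.78, 6.35 and 7.15 in M (2.79 ± 0.87 SE, adjusted p = 0.0191 without the brightness filter). That call was lost without M replicate 3 (adjusted p = 0.0618). Cldn5, a tight junction protein, differed by 1.99 ± 0.25 SE, adjusted p = 2.74e-05 and the transcription factor gene Erg by 1.66 ± 0.18 SE, adjusted p = 1.20e-05. Eng, a TGF-beta co-receptor also found on erythroid precursors, went the other way, from 9.69, 9.81 and 9.91 in E to 9.21, 9.10 and 9.03 in M (-0.69 ± 0.09 SE, adjusted p = 5.72e-05), as did Egfl7 (-1.11 ± 0.15 SE, adjusted p = 5.06e-05). Under spike-in scaling the median of the 6 endothelial members over the brightness filter was 0.12, against 1.17 as deposited. Of 9 Schwann cell genes 6 were higher (median 1.85) and 1, Mbp (-0.89 ± 0.10 SE, adjusted p = 1.40e-05), was lower. Of 16 skeletal muscle genes 9 were higher (median 1.73). Only 3 of the 16 passed the brightness filter, and their median was 0.51 as deposited, -0.25 with centring and -0.54 with spike-ins.

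**Figure D3:**
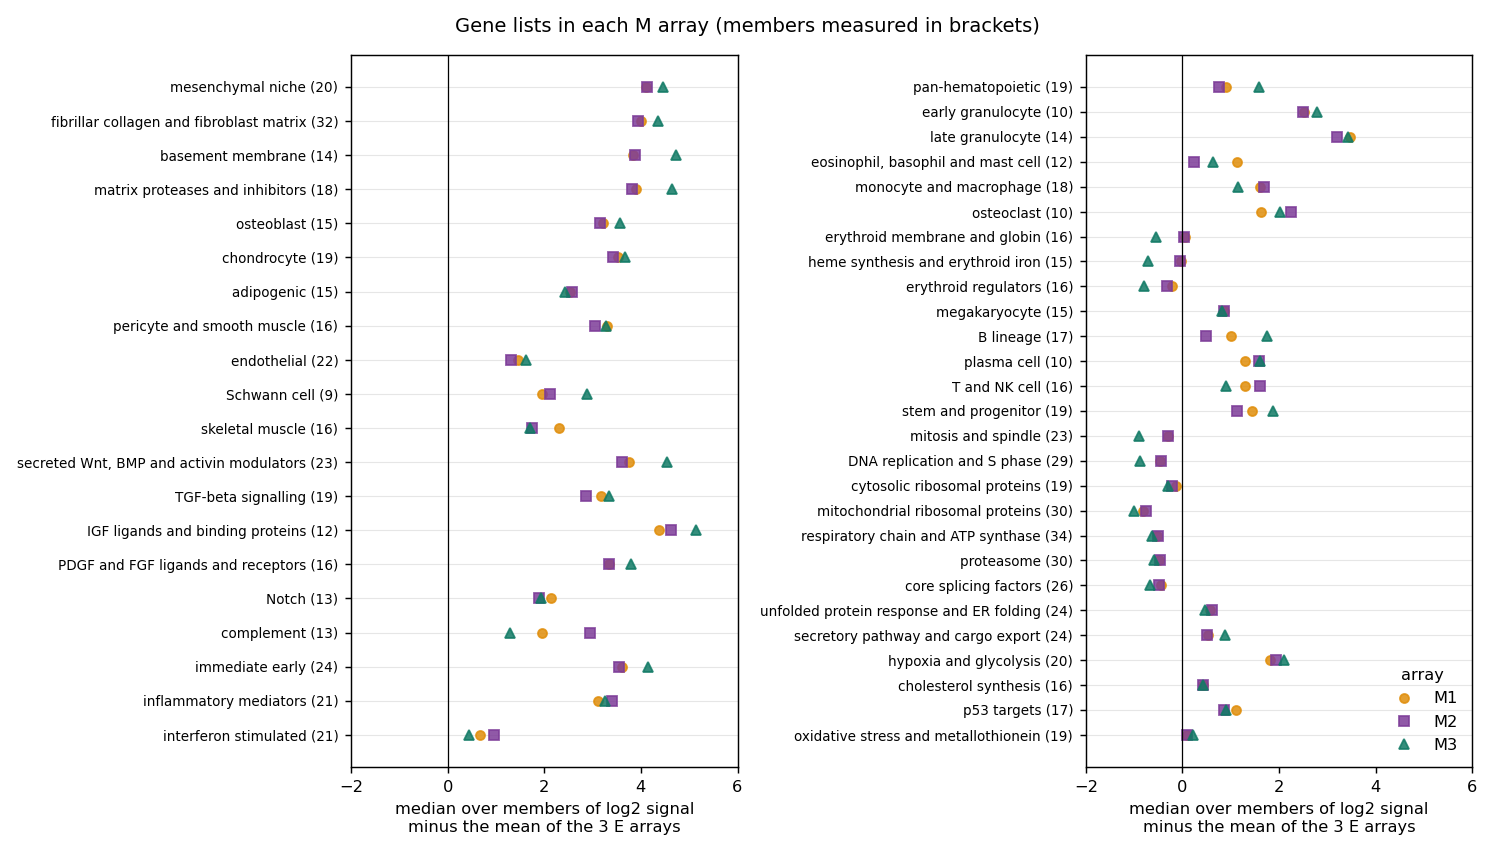
Median over the measured members of each of 47 gene lists of the log2 signal minus the mean of the 3 E arrays, for M replicates 1 (circles), 2 (squares) and 3 (triangles). Stromal and signalling lists (left) lay above 0 in all 3 M arrays, cell division, ribosome, respiratory chain, proteasome and splicing lists lay below 0, and in the erythroid and cell division lists replicate 3 lay below the other M arrays.

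Secreted signals and their targets changed in the same direction as the stromal markers. Of 23 secreted modulators of Wnt, BMP and activin and their targets, 22 were called higher (median 3.73), with Fstl1, follistatin-like 1, at 4.87 ± 0.13 SE, adjusted p = 2.99e-10 and the Wnt antagonist gene Sfrp4 at 4.52 ± 0.24 SE, adjusted p = 3.27e-08. In the TGF-beta list 18 of 19 were higher (median 3.31). Ccn2, connective tissue growth factor, read 11.23, 11.18 and 11.21 in E and 14.64, 14.50 and 14.55 in M (3.36 ± 0.07 SE, adjusted p = 8.89e-11). WT, at 12.70, 12.66 and 12.88, lay between them. All 12 genes of IGF ligands and binding proteins were higher (median 4.94), among them Igfbp7 at 5.13 and Igfbp4 at 3.21, and 14 of 16 of the PDGF and FGF list (median 3.52), among them the ligand gene Pdgfa at 3.72 and the receptor gene Fgfr3 at 3.32. In the Notch list 7 of 13 were higher (median 1.98), with the ligand gene Jag1 at 4.81 ± 0.20 SE, adjusted p = 5.48e-09 and the receptor gene Notch1 at 1.94 ± 0.14 SE, adjusted p = 4.82e-07. Nrarp, a target of Notch signalling, read 8.23, 8.24 and 8.34 in E and 8.04, 8.23 and 8.17 in M, and did not pass (adjusted p = 0.476). Complement genes were higher in 7 of 13 (median 1.62), with the inhibitor gene Serping1 at 5.23 ± 0.10 SE, adjusted p = 6.10e-11.

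Immediate early genes, switched on fast by growth factors and also by tissue dissociation, rose in 23 of 24 members (median 3.78), and in 24 without M replicate 3. Egr1 read 9.57, 9.58 and 9.54 in E and 14.30, 14.15 and 14.33 in M (4.69 ± 0.07 SE, adjusted p = 1.29e-11). Fos read 11.72, 11.86 and 11.84 in E and 14.20, 14.09 and 14.26 in M (2.37 ± 0.07 SE, adjusted p = 4.25e-10), and Jun differed by 2.20 ± 0.07 SE, adjusted p = 9.17e-10. WT lay between the groups for all 3 genes, with Egr1 at 10.18, 10.28 and 10.18. Inflammatory mediators rose in 18 of 21 (median 3.23). Cxcl1, a chemokine that attracts neutrophils, read 8.11, 7.96 and 8.63 in E and 13.56, 13.42 and 13.46 in M (5.25 ± 0.15 SE, adjusted p = 4.25e-10), and Ptgs2, the inducible prostaglandin synthase, differed by 4.11 ± 0.13 SE, adjusted p = 8.65e-10. The cytokine feedback gene Socs3 differed by 5.11 ± 0.19 SE, adjusted p = 2.15e-09. Interferon-stimulated genes were mixed: 10 of 21 were higher and 3 lower (median 0.74). Gbp2 (3.40 ± 0.24 SE, adjusted p = 3.50e-07) and Irf1 (2.53 ± 0.16 SE, adjusted p = 1.17e-07) rose, while the membrane protein gene Bst2 fell (-0.67 ± 0.18 SE, adjusted p = 0.00633), as did Usp18 (-0.56 ± 0.19 SE, adjusted p = 0.0186), which was not called without E replicate 1 or without E replicate 2 (adjusted p up to 0.0577). Over the brightness filter the interferon median was 0.49 as deposited and -0.56 with spike-in scaling.

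Granulocyte genes rose, several from levels that were bright in E. Late granule and neutrophil genes were called higher in 13 of 14 members (median 3.31) and early granule genes in 9 of 10 (median 2.60), with 11 and 9 without M replicate 3. Chil3, a chitinase-like protein of neutrophils and some macrophages, read 6.78, 6.66 and 6.56 in WT, 10.25, 10.27 and 10.40 in E and 14.85, 14.65 and 14.71 in M, a difference between M and E of 4.43 ± 0.09 SE, adjusted p = 6.10e-11. The 3 groups were apart by several times their spread. S100a8 read 11.58, 11.67 and 11.93 in E and 15.22, 15.05 and 15.13 in M (3.40 ± 0.10 SE, adjusted p = 4.25e-10), and S100a9, its partner in the complex calprotectin, differed by 3.95 ± 0.13 SE, adjusted p = 1.19e-09. Mpo, myeloperoxidase of the earliest granules, was bright in E at 11.74, 11.76 and 11.76 and read 13.54, 13.42 and 13.34 in M (1.68 ± 0.07 SE, adjusted p = 4.11e-09). The elastase gene Elane differed by 2.67, the protease gene Ctsg by 2.85 and Hp, haptoglobin, by 4.57. General blood cell markers moved with them: the mean level of 19 such genes ran from 8.64 to 8.66 in the E arrays and read 9.59 and 9.56 in M replicates 1 and 2, with replicate 3 higher still. Their part in the result was not tested.

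Other blood cell markers had smaller medians. Of 19 genes shared by blood cells 13 were higher and 3 lower (median 1.05), and the members over the brightness filter had a median of 0.05 under spike-in scaling. Ptprc differed by 1.05 ± 0.19 SE, adjusted p = 0.000546 as deposited and by -0.01 with spike-ins. The actin-binding protein gene Lcp1 differed by 2.33 and the receptor adapter gene Tyrobp by 2.13, while Fermt3, an integrin activator bright in both groups, differed by -0.64. In the monocyte and macrophage list 11 of 18 were higher and 1 lower (median 1.57). Lyz2, lysozyme, read 9.22, 9.43 and 9.46 in E and 12.63, 12.50 and 13.60 in M (3.54 ± 0.23 SE, adjusted p = 1.87e-07), and Csf1r, the receptor that macrophages need, differed by 0.75 ± 0.12 SE, adjusted p = 0.000147 but by -0.30 with spike-ins. Cd163, a scavenger receptor of resident macrophages, was under the filter and lower in M, at 6.13, 6.18 and 6.42 in E and 5.04, 4.57 and 4.81 in M (-1.44 ± 0.35 SE, adjusted p = 0.00427 without the brightness filter). Marco, C1qa and Siglec1, other macrophage markers picked after their values were seen, were dim in both groups, with every array at or under 5.15. They do not stand for the list, in which 11 of 18 were higher. In the osteoclast list 5 of 10 were higher (median 1.88), with Ctsk, the collagen-cutting protease of osteoclasts and fibroblasts, at 4.96 ± 0.35 SE, adjusted p = 3.33e-07, and Acp5, tartrate-resistant phosphatase, at 0.29 ± 0.13 SE, adjusted p = 0.0577. In the eosinophil, basophil and mast cell list 5 of 12 were higher (median 0.72, and -0.80 with spike-ins over the filter). Mcpt8, a basophil protease, read 7.95, 7.64 and 7.32 in E and 11.10, 10.38 and 11.56 in M (3.37 ± 0.26 SE, adjusted p = 7.71e-07). The eosinophil gene Prg2 read 10.78, 10.73 and 10.95 in E and 11.30, 10.88 and 10.76 in M and did not pass (adjusted p = 0.291).

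In the megakaryocyte list 10 of 15 were higher and 2 lower (median 0.87, and -0.22 with spike-ins over the filter). The platelet receptor genes Gp9 (-0.58 ± 0.16 SE, adjusted p = 0.00734) and Gp5 (-0.50 ± 0.18 SE, adjusted p = 0.0313) fell. Gp5 was not called without E replicate 2, E replicate 3 or M replicate 3, where the adjusted p reached 0.0875. Of 17 B lineage genes 9 were higher (median 1.21), and 7 without M replicate 3. Over the brightness filter their median was 1.21 as deposited, 0.45 with centring and 0.16 with spike-ins. Igll1, part of the surrogate light chain of B precursors, read 6.87, 7.40 and 7.25 in E and 9.39, 9.51 and 10.14 in M (2.51 ± 0.34 SE, adjusted p = 5.20e-05). Plasma cell genes were higher in 7 of 10 (median 1.52), with the immunoglobulin joining chain gene Jchain at 1.59 ± 0.14 SE, adjusted p = 2.35e-06. T and NK cell genes were higher in 5 of 16 (median 1.27), against 24.1% over all genes, and 1 of the 16 passed the brightness filter. Cd3e and Cd4, picked after their values were seen, read at most 3.53 in any of the 6 arrays. They do not stand for the list, in which differences reached 4.67. Of 19 stem and progenitor genes 12 were higher and 4 lower (median 1.52). Over the brightness filter their median was 1.08 as deposited, 0.32 with centring and 0.03 with spike-ins. Cd34, shared by progenitors and endothelium, differed by 3.71 ± 0.21 SE, adjusted p = 4.97e-08, while Kit, the receptor of Kitl, fell from 10.96, 10.81 and 10.80 in E to 10.55, 10.50 and 10.41 in M (-0.37 ± 0.12 SE, adjusted p = 0.0145) and the progenitor factor gene Myb differed by -0.39 ± 0.10 SE, adjusted p = 0.00565. Kit was not called without E replicate 1 (adjusted p = 0.0600). Its level lies in the brightest of the 5 groups by E level, where 65.7% of genes were lower and the median was -0.40. The fall of Kit is thus near the median of genes as bright, and was not read against the rise of Kitl.

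Genes of red cell development were mixed. The mean levels of the 3 erythroid lists in the E arrays ran from 10.81 to 11.95. In the brightest of the 5 groups by E level 65.7% of genes were lower and 10.1% higher (median -0.40). The share called lower was under that 65.7% in each of the 3 lists. Of 16 erythroid regulators 9 were lower and 2 higher (median -0.48). Gata1 differed by -0.94 ± 0.09 SE, adjusted p = 4.78e-06, Epor, the erythropoietin receptor, by -0.88 ± 0.09 SE, adjusted p = 5.04e-06, and the repressor gene Gfi1b by -0.78 ± 0.10 SE, adjusted p = 2.45e-05, and for each of them all M arrays lay below all E arrays. Nfe2 (0.58 ± 0.19 SE, adjusted p = 0.0193) and Mxi1 (0.57 ± 0.13 SE, adjusted p = 0.00196) were higher, though both turned negative under spike-in scaling, and Nfe2 was not called without any 1 of E replicates 1 and 3 and M replicates 1 and 2 (adjusted p up to 0.0779). A few products of late precursors, though not their lists as a whole, were well above E in M replicates 1 and 2. Alas2, the erythroid enzyme that starts heme synthesis, read 7.49, 7.80 and 7.90 in E and 11.74, 11.58 and 8.50 in M. The first 2 M arrays were above WT (9.69, 9.86 and 9.90) and the last was below it. Alas2 was called with all 3 M arrays (2.88 ± 0.65 SE, adjusted p = 0.00219) and differed by 3.93 without replicate 3 (adjusted p = 5.24e-12). Slc4a1, the anion exchanger of the red cell membrane, read 12.22, 11.99 and 12.33 in E and 14.09, 13.99 and 12.00 in M (1.18 ± 0.42 SE, adjusted p = 0.0272), so replicate 3 lay within the range of E, and the call was lost without any 1 of the E arrays or of M replicates 1 and 2 (adjusted p up to 0.104). Slc25a37, the mitochondrial iron importer, read 11.14, 11.10 and 11.21 in E and 13.31, 13.11 and 10.81 in M (1.26 ± 0.49 SE, adjusted p = 0.0393). Its adjusted p rose to as much as 0.151 when any array but M replicate 3 was left out, and fell to 4.65e-11 without that one. Tmod1, which caps actin in the membrane skeleton, read 7.85, 7.81 and 7.46 in E and 10.49, 10.21 and 7.99 in M (1.86 ± 0.50 SE, adjusted p = 0.00653). Against them Alad, a heme enzyme, fell (-0.62 ± 0.13 SE, adjusted p = 0.00171), as did Tspo2 (-1.03 ± 0.14 SE, adjusted p = 6.25e-05) and the membrane skeleton gene Add2 (-0.77 ± 0.17 SE, adjusted p = 0.00159). The probe set of Hba-a1, an alpha-globin with a near-identical copy, was dim in every group, at 4.55, 2.69 and 2.79 in E and 2.88, 5.64 and 4.86 in M (1.12 ± 0.87 SE, adjusted p = 0.337 without the brightness filter). Probe sets with several gene symbols were left out, so this reading does not give the level of alpha-globin RNA as a whole. In all, 2 of 16 erythroid membrane and globin genes were higher and 2 lower (median -0.13), and 2 of 15 heme and iron genes higher and 5 lower (median -0.25). In M replicates 1 and 2 the medians were 0.06 and 0.03 for the first list and -0.03 and -0.04 for the second.

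Genes of cell division were lower in M. In the DNA replication list 25 of 29 were lower and 0 higher (median -0.62), and in the mitosis list 16 of 23 and 0 (median -0.53), against 21.4% lower over all genes. These genes are bright, at means of 11.88 to 11.95 in the E arrays for mitosis and 12.54 to 12.58 for replication, and of the genes in the brightest of the 5 groups by E level 65.7% were lower. The share of the mitosis list is near that. Mcm6, a subunit of the replicative helicase, read 13.69, 13.70 and 13.72 in E and 12.92, 12.95 and 12.95 in M (-0.76 ± 0.06 SE, adjusted p = 8.30e-07). Bub1b, of the spindle checkpoint, read 11.44, 11.54 and 11.57 in E and 10.33, 10.55 and 9.82 in M (-1.29 ± 0.15 SE, adjusted p = 1.66e-05), lowest in replicate 3. Plk1, a mitotic kinase, differed by -0.95 and Cenpa, the histone of the centromere, by -0.87. The proliferation marker Mki67 was an exception, at 12.99, 12.88 and 13.24 in E and 13.69, 13.39 and 12.81 in M (0.26 ± 0.18 SE, adjusted p = 0.209). Without M replicate 3 it was called higher, by 0.50 (adjusted p = 0.000380), and it is 1 of the 2 members of the mitosis list called higher there.

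Genes of the mitochondria, the proteasome and splicing fell almost throughout. All 30 mitochondrial ribosomal protein genes were lower (median -0.87), all 34 genes of the respiratory chain and ATP synthase (median -0.57), all 30 proteasome genes (median -0.49) and 24 of 26 core splicing factors (median -0.56), against 21.4% over all genes, and the same numbers were called without M replicate 3. These genes are bright, and 65.7% of the genes in the brightest of the 5 groups were lower. Mrpl18 read 13.13, 13.10 and 13.04 in E and 12.17, 12.11 and 12.05 in M (-0.98 ± 0.06 SE, adjusted p = 1.06e-07). Ndufa5, of respiratory complex I, read 13.12, 13.12 and 13.15 in E and 12.23, 12.17 and 12.15 in M (-0.95 ± 0.05 SE, adjusted p = 6.61e-08). The proteasome gene Psmb3 differed by -0.80 and the splicing factor gene Snrpd3 by -0.72. Cytosolic ribosomal protein genes fell less, with 10 of 19 lower (median -0.21), and Rpl37 (-1.20) read 10.75, 10.81 and 11.92 in M against 12.22, 12.44 and 12.41 in E. The medians of these 5 lists were below 0 under all 4 scalings, but so was the median over all tested genes. That median was -0.19 as deposited, -0.29 with quantile normalization, -0.95 with centring and -1.24 with spike-ins. The cytosolic ribosomal list, at -0.21, -0.08, -0.97 and -1.26 in the same order, did not fall clearly beyond it.

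Secretion, folding and metabolism were mixed. Of 24 genes of ER folding and the unfolded protein response 16 were higher and 3 lower (median 0.55), and of 24 genes of the secretory pathway 16 and 3 (median 0.61). Both medians turned negative over the brightness filter with centring and with spike-ins. Dnajb9, an ER chaperone, differed by 2.65 ± 0.09 SE, adjusted p = 1.88e-09, and P4ha2, which hydroxylates collagen, by 3.41 ± 0.17 SE, adjusted p = 2.34e-08. The hypoxia and glycolysis list divided by enzyme: 12 of 20 were higher and 6 lower (median 1.99). The glucose transporter gene Slc2a1 read 7.53, 7.40 and 7.75 in E and 11.69, 11.75 and 12.10 in M (4.29 ± 0.13 SE, adjusted p = 6.30e-10) and the hexokinase gene Hk2 differed by 3.31 ± 0.11 SE, adjusted p = 1.16e-09. Its relative Hk1 fell (-0.56 ± 0.10 SE, adjusted p = 0.000577), together with Tpi1 (-0.49), Ldha (-0.36) and Pdk1 (-0.77). Cholesterol synthesis genes were higher in 10 of 16 and lower in 1 (median 0.43), with Hmgcs1 at 2.09 ± 0.07 SE, adjusted p = 1.84e-09. Over the brightness filter their median was 0.37 as deposited, -0.39 with centring and -0.68 with spike-ins. Of 17 targets of p53, 11 were higher and 2 lower (median 1.16), with the cell cycle inhibitor gene Cdkn1a at 3.38 ± 0.09 SE, adjusted p = 3.12e-10. Their median over the filter was 0.49 as deposited, -0.28 with centring and -0.57 with spike-ins. Antioxidant genes were higher in 7 of 19 and lower in 4 (median 0.18, and -0.73 and -1.02 over the filter with centring and with spike-ins), with the glutathione peroxidase genes Gpx8 (4.69) and Gpx3 (4.49) against the superoxide dismutase genes Sod1 (-0.39) and Sod2 (-0.63).

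M replicate 3 departed from the other M arrays. Over the tested genes M replicates 1 and 2 differed by a root mean square of 0.215, no more than arrays within E, while replicate 3 differed from them by 0.442 and 0.442. Against the mean of the other arrays of its group, replicate 3 was more than 1 above in 158 genes and more than 1 below in 128, together 3.14% of genes. M replicates 1 and 2 had 0.539% and 0.473% beyond 1, and the E arrays 0.242 to 0.264%. Array weights estimated by limma were 0.140 for it and 1.04 to 1.75 for the other 8 arrays. On the spike-ins it was unremarkable, 0.05 below the mean of M replicates 1 and 2 for poly-A controls and 0.14 below for hybridisation controls. Its 3' excess for Gapdh was 0.31 below theirs. At 0.07 it lay within the 0.06 to 0.08 of the E arrays, while M replicates 1 and 2 stood apart at 0.43 and 0.34. Any part of this in the results was not tested.

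**Figure D4:**
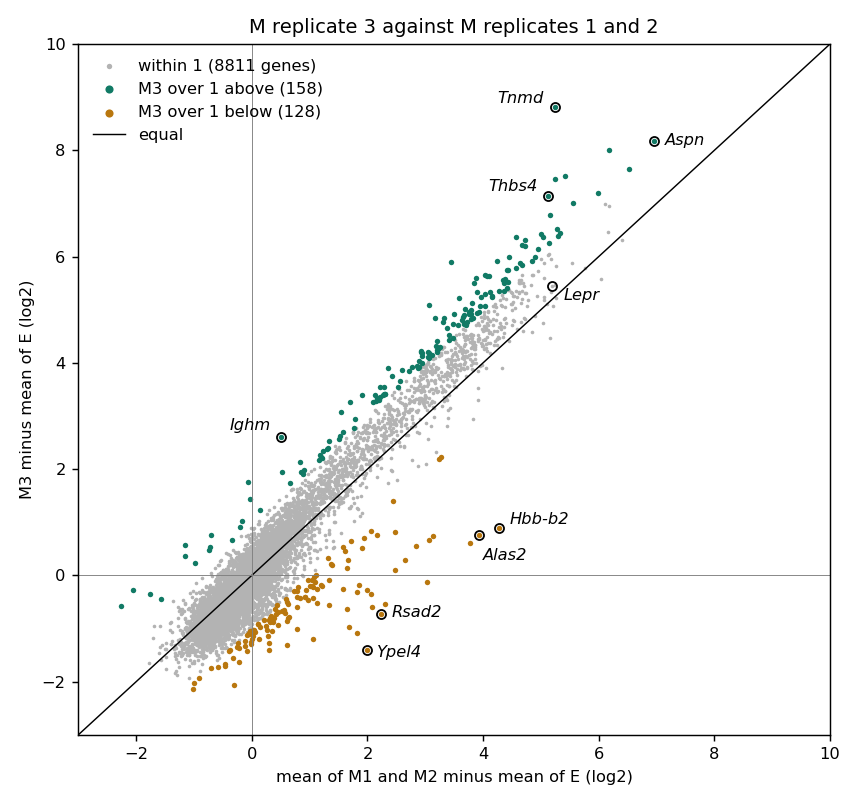
M replicate 3 minus the mean of E (vertical axis) against the mean of M replicates 1 and 2 minus the mean of E (horizontal axis), log2, for the 9097 tested genes, with the line of equality. Strong rises lay above the line, so replicate 3 read higher (Tnmd, Thbs4, Aspn), while 128 genes lay more than 1 below it, many of which were high in replicates 1 and 2 and near or below E in replicate 3 (Hbb-b2, Alas2, Rsad2, Ypel4).

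Genes that rose strongly in M mostly read higher still in replicate 3. The differences of each M array from E were set against those of the mean of the other 2 M arrays. The slope was 1.14 for replicate 3, and 0.91 and 0.90 for M replicates 1 and 2. Replicate 3 is part of the mean against which the latter were set, so their slopes are no independent baseline. Of the 1345 genes that rose by more than 1, replicate 3 lay above both others in 1144 (85.1%) and below both in 120 (8.92%), against 38.7% and 45.6% over all tested genes. Replicate 3 itself counts in that choice. Chosen without replicate 3, from the 1315 genes that rose by more than 1 in the other M arrays, it lay above both in 81.3% and below both in 12.3%. It was the highest M array in 31 of 32 fibroblast matrix genes, 21 of 23 Wnt, BMP and activin modulators and 11 of 12 IGF genes. Other risen lists were less one-sided, with replicate 3 highest in 8 of 15 osteoblast, 8 of 15 adipogenic, 12 of 21 inflammatory, 5 of 10 early granulocyte and 4 of 16 skeletal muscle genes. Of the 158 genes far above, 142 were called higher in M as well. Tnmd read 10.01, 10.16 and 13.66 in M against 5.92, 3.51 and 5.11 in E, which put replicate 3 at 3.57 above the mean of the others, the most of all tested genes. Thbs4, a tendon and muscle matrix protein, read 11.68, 11.76 and 13.73 in M, Itgbl1 10.51, 10.45 and 12.70 and Abi3bp, another matrix protein, 10.68, 10.75 and 12.81. Igfbp6 read 11.08, 11.35 and 13.01, Ccdc3 9.24, 8.97 and 11.56 and Dio2, which activates thyroid hormone, 8.83, 8.69 and 10.78. Without replicate 3 Tnmd differed by 5.24 (adjusted p = 1.20e-06) and Igfbp6 by 4.57 (adjusted p = 3.26e-09), so both were called from the other M arrays too.

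B lineage transcripts were high in replicate 3 by another pattern. Ighm, the heavy chain of IgM, read 10.96, 10.85 and 10.79 in E and 11.62, 11.14 and 13.47 in M (1.21 ± 0.45 SE, adjusted p = 0.0306). Without replicate 3 the difference was 0.51 (adjusted p = 0.00539), and without any 1 of the E arrays it was not called (adjusted p up to 0.0776). Vpreb1, of the surrogate light chain, read 7.77, 7.32 and 8.03 in E and 7.67, 7.63 and 9.46 in M, so only replicate 3 lay above E, and it did not pass (0.54 ± 0.42 SE, adjusted p = 0.263). Blnk, a B cell adapter, read 8.76, 7.66 and 9.51 in M, Cd79b, of the B cell receptor, 7.93, 7.17 and 8.43. Over the 17 B lineage genes measured, replicate 3 was the highest M array in 11 and the lowest in 5.

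The genes far below in replicate 3 were a different set. Of the 128, 80 were not called between M and E, 103 had a mean of M replicates 1 and 2 above E and 103 had replicate 3 below the mean of E. The median difference from E was 0.69 in replicates 1 and 2 and -0.66 in replicate 3. Members of the 3 erythroid lists made up 13 of the 128, out of 45 tested. Hbb-b2, an adult beta-globin whose probe set can take signal from its near-identical neighbour, read 8.15, 8.06 and 8.04 in E and 12.21, 12.50 and 8.98 in M. Epb42, of the red cell membrane, read 9.50, 9.01 and 9.46 in E and 11.41, 11.40 and 8.72 in M, and did not pass (1.19 ± 0.58 SE, adjusted p = 0.0888), but did without replicate 3 (adjusted p = 1.03e-06). Ypel4 read 6.75, 7.52 and 7.25 in E and 9.19, 9.13 and 5.78 in M (0.86 ± 0.72 SE, adjusted p = 0.305), and without replicate 3 it differed by 1.98 (adjusted p = 3.32e-06). Tmcc2 (13.33, 13.36 and 10.20), Fhdc1 (10.65, 10.41 and 7.68) and Sowaha (8.65, 8.70 and 5.77) had the same shape in M. Of these, Tmcc2 was called with replicate 3 as well (1.98 ± 0.64 SE, adjusted p = 0.0174), but not without E replicate 1, M replicate 1 or M replicate 2 (adjusted p up to 0.0700). In each of these 6 genes the first 2 M arrays were above all E arrays, and replicate 3 was within or below the E range except for Hbb-b2, where it was 0.90 above the E mean.

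Lists were read in the same way. Replicate 3 was the lowest M array in 15 of 15 heme and iron genes and below all E arrays in 14 of them. The same counts were 15 and 14 of 16 erythroid regulators and 14 and 12 of 16 membrane and globin genes. Over all tested genes replicate 3 was the lowest M array in 45.6% and below all E arrays in 56.9%, and in the brightest of the 5 groups by E level the shares were 62.8% and 79.4%. In the cell division lists it was the lowest M array in 22 of 23 mitosis genes and 28 of 29 replication genes, and below all E arrays in every one of both. It was also below all E arrays in every gene of the mitochondrial ribosome, respiratory chain, proteasome and splicing lists, and the lowest M array in 22 of 30, 28 of 34, 22 of 30 and 23 of 26. In M replicates 1 and 2 the mitosis genes lay at medians of -0.31 and -0.31 against E, and in replicate 3 at -0.90. Among other genes, Rsad2, an interferon-induced antiviral gene, read 9.90, 9.96 and 10.19 in E and 12.26, 12.23 and 9.30 in M, and the apolipoprotein L genes Apol11b (9.58, 9.70 and 6.48) and Apol8 (9.62, 9.87 and 7.09) were likewise low in replicate 3. The interferon list as a whole did not follow, with replicate 3 lowest in 10 of 21 and highest in 7. Of the 106 genes far below with an upstream sequence, 17.9% held a GATA-type match, against 8.52% of all tested genes, and 12.3% held TATAAA, against 6.01%. In the 124 such genes far above, the shares were 6.45% and 11.3%, so the TATAAA share was not particular to the genes far below.

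**Figure D5:**
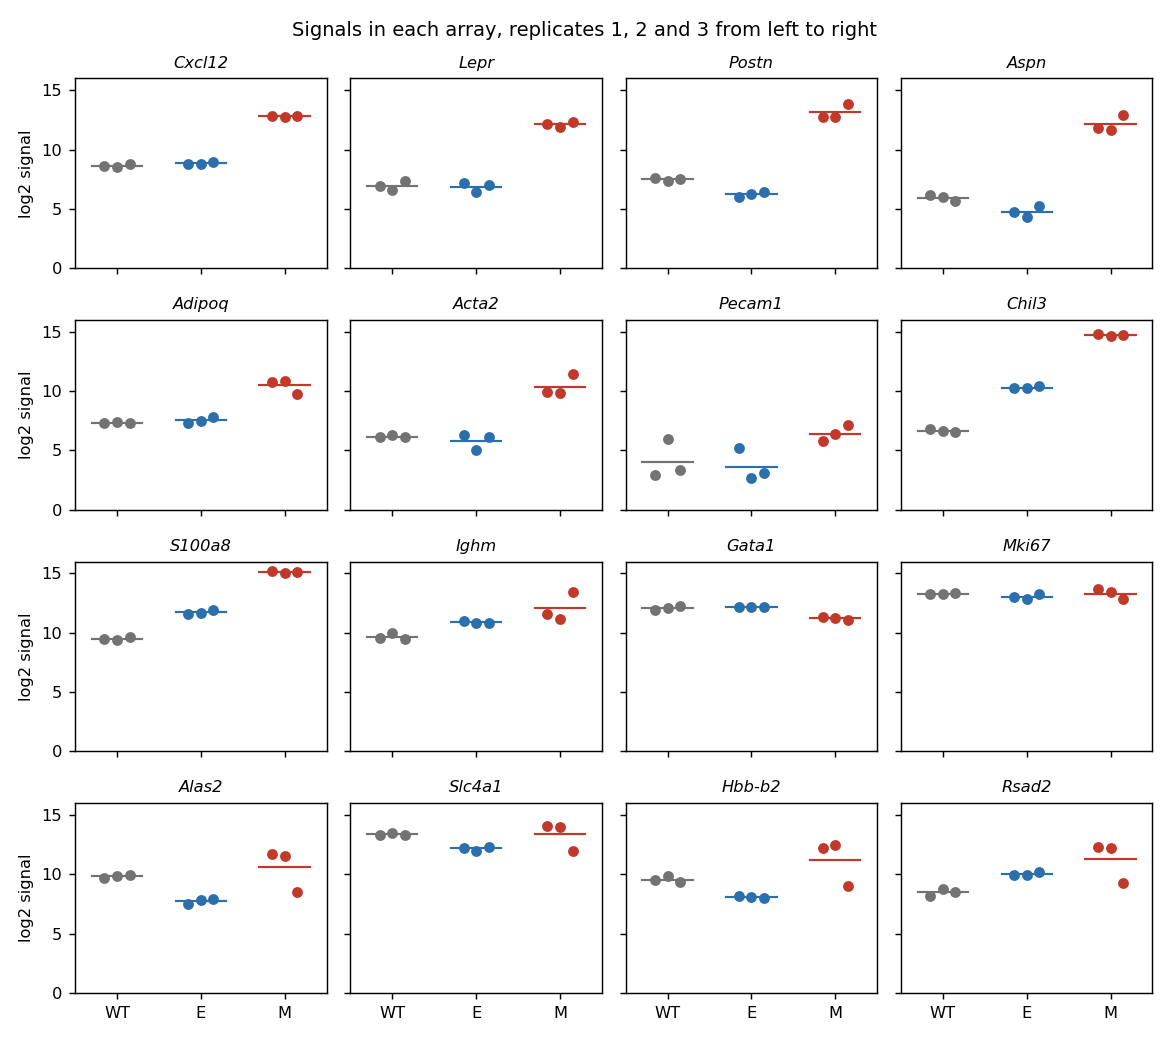
Log2 signals of 16 genes in each of the 9 arrays, with replicates 1, 2 and 3 from left to right in each group and the group mean as a line. Stromal (Cxcl12, Lepr, Postn, Aspn, Adipoq, Acta2) and granulocyte genes (Chil3, S100a8) were higher in every M array than in any E array, while Alas2, Slc4a1, Hbb-b2 and Rsad2 were far lower in M replicate 3 than in M replicates 1 and 2, for Alas2 and Hbb-b2 still above every E array.

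Most calls between M and E were made with and without replicate 3. Without it 6462 genes were called, 2483 higher and 3979 lower. Of these 2271 were higher and 3810 lower in both fits, 0 went opposite ways, 287 were called only with it and 381 only without it, of which 212 were higher.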

How the data were processed

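Sorted bone marrow stromal cells were profiled on 9 Affymetrix arrays, 3 each of WT, E and M. The deposited values are log2 signals that the authors made with MAS5, per the submitters' processing notes. The version and scaling target are not given in the sources used here, and the number of arrays limits the precision. Of 45101 probe sets, 34958 had a single gene symbol in the platform annotation, 932 had several and 9211 are unnamed here. Each of the 18194 genes was given its probe set of highest mean, and the 9097 genes at or above log2 6.83 were tested.

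M and E were compared with limma 3.58.1 in R 4.3.3 (all 9 arrays, intensity trend, Benjamini-Hochberg, adjusted p under 0.05), tested on simulated data first. Counts over gene lists come from the same fit without the brightness filter. Alternatives were 2 pseudocounts, the filter, 3 other scalings, the variance model, the probe set choice, a fold threshold, the replicate number as a block and leaving out each array. Named were the 15 largest rises and falls with groups that did not overlap, up to 4 members of each of the 47 lists by p and those called against their list, the 10 genes farthest above and below in M replicate 3, and 20 fixed genes. The comparison, genes and lists were chosen with earlier results of these data known. Upstream sequences came from RefSeq.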

Additional observations from a re-analysis of the deposited data

How the results depend on the processing

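Between 6368 calls as reported and the alternatives, the count moved by more than 1.5 times only with the brightest 25% of genes (3485 calls, 742 of them higher) and with limma's treat against a log2 difference of 1 (1034 calls, 1013 higher and 21 lower). Both test fewer genes or ask for a larger difference by construction. Without the brightness filter 4382 genes were higher, and 4113 with M replicate 3 left out as well, an alternative chosen after seeing the data. Centring each array gave 1221 higher and 6948 lower, and scaling on the poly-A spike-ins 1009 and 7210. The root mean square departure of M replicate 3 was 0.884 without the filter, where dim genes enter, and its slope ranged from 1.02 to 1.16.

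Leaving out each array in turn gave 5782 to 6462 calls, 2181 to 2483 higher and 3592 to 3979 lower. With the replicate number as a replicate block 6248 genes were called. Arrays of E and M with the same number had deviations that correlated at -0.10, 0.08 and -0.02, and those with different numbers at -0.06 to 0.09. These values show no pairing by number, but 3 arrays a group are too few to exclude it.

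Of the genes named, these changed direction with centring and with spike-ins, in that order: Acp5 (-0.47 and -0.76), Csf1r (-0.01 and -0.30), Mki67 (-0.50 and -0.79), Mxi1 (-0.19 and -0.48), Nfe2 (-0.19 and -0.48), Prg2 (-0.60 and -0.89) and Vpreb1 (-0.22 and -0.51). With spike-ins so did Ptprc (-0.01), Apol8 (-0.25), Sowaha (-0.21) and Ypel4 (-0.20), and without M replicate 3, with or without the filter, Vpreb1 (-0.06). Leaving out each array in turn gave -0.06 to 0.86 for Vpreb1. The cause was not tested. Quantile normalization reversed 0 and ended 4 calls among the genes named, and the mean of a gene's probe sets reversed 0 and ended 10. Beside the changes of direction above, centring ended 7 calls and spike-in scaling 6. Slc4a1, Slc25a37 and Ighm were not called under either of these. The limits are 3 arrays a group, MAS5 signals that are unreliable for dim probe sets, and a poly-A spike-in difference that cannot be told apart from the groups.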

Other observations

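The bright probe sets that were not chosen to represent their gene mostly had the same sign as the chosen one. For 875 genes called higher in M, 1245 of 1360 further probe sets (91.5%) had a positive difference, with a median of 0.75. For 1851 genes called lower, 2569 of 2970 (86.5%) had a negative one, with a median of -0.43. Probe sets of a gene share their arrays and are no replicates.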
